A study of Mus musculus with 6 samples.

Results

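Cndp2 and 6 other genes for enzymes that act on dipeptides or trim short peptides (Cndp1, Pepd, Lap3, Anpep, Xpnpep1 and Dpep2) were examined in tumor ECs, 7 of the 24346 gene symbols in the data. They were found by symbol, and they were selected on measured values, the FPKM of these same 6 samples: Cndp2 stood next to Apln in how consistently WT and Apelin-KO samples differed, and the others are related enzymes. The difference between genotypes is therefore given for them as a description without a test. Expression was measured by RNA-sequencing of CD31+ CD45- cells sorted from subcutaneous tumors of the colon adenocarcinoma line MC38, taken at day 19. One group was WT C57BL/6 mice (n = 3), and the other was Apelin-KO mice of the same strain (n = 3), which lack the gene for the peptide apelin in the whole body and not in ECs alone. The mice were 8 to 10 weeks old in the study's methods, and the sample titles of both groups also name saline. The study's methods describe saline given by osmotic pump to tumor-bearing mice of other experiments and do not say whether the mice sequenced here received it. The sample titles number the samples within each group, and neither they nor the study's text say whether each came from a single mouse. The spread given is that between the 3 samples of a genotype.

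Dipeptidases and aminopeptidases complete the breakdown of proteins and peptides to free amino acids. CNDP2 is a metal-dependent cytosolic dipeptidase with broad specificity. It cleaves cysteinylglycine, a product of glutathione breakdown, and it can also join lactate to amino acids to form N-lactoyl amino acids. CNDP1 is the secreted relative that cleaves carnosine, DPEP2 is a dipeptidase anchored to the cell membrane, and PEPD (prolidase) releases proline from dipeptides that end in it, as in the recycling of collagen. LAP3 and XPNPEP1 are cytosolic aminopeptidases, the latter specific for a bond before proline, and ANPEP (CD13) is an aminopeptidase on the cell surface that is used as a marker of myeloid cells and is found on vessels of growing tissue.

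Values are FPKM, the fragments of a gene divided by its transcript length in kilobases and scaled to the fragments mapped in the sample, so that levels of different genes are compared per length. Estimated depth was 9000000 to 10260000 reads per sample. Apln averaged 457 ± 40.7 FPKM in WT and 17.3 ± 7.2 FPKM in Apelin-KO samples (mean ± SD, n = 3 each), and the groups lay far apart. Apelin-KO samples still held 9.96 to 24.3 FPKM, on average 3.78% of WT and an estimated 274 to 679 reads, so that reads at this gene were low but present, and their source was not tested. The CD31 gene Pecam1 was at 553 to 671 FPKM in WT and 689 to 846 FPKM in Apelin-KO samples, and Cdh5, which encodes VE-cadherin, was at 155 to 214 and 219 to 294 FPKM. The summed FPKM of 15 endothelial markers was 4370 to 5210 in WT and 5410 to 5690 in Apelin-KO samples. Ptprc, which encodes CD45, was at 1.27 to 4.84 and 0.043 to 1.7 FPKM. The 9 epithelial markers summed to 8.46 to 13.6 FPKM in WT and 9.4 to 21.7 FPKM in Apelin-KO samples, most of it Krt20, at 8.82 ± 2.27 FPKM in WT and 13.7 ± 6.22 FPKM in Apelin-KO samples with overlapping groups. Epcam was at most 0.264 FPKM and Cdx2 was at 0 in all 6 samples. In bulk RNA of this kind, fewer cells of a type and less RNA per cell cannot be told apart.

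Cndp2 was at 24.4, 22.4 and 22.2 FPKM in the WT samples 1, 2 and 3, while the Apelin-KO samples 1, 2 and 3 had 47.7, 48.1 and 46.6 FPKM. Every Apelin-KO sample thus lay far above every WT sample, and the lowest Apelin-KO value was 1.91 times the highest WT value. The means were 23.0 ± 1.2 and 47.5 ± 0.776 FPKM (SD, n = 3 each), a 2.06-fold difference, and the log2 difference was 1.02 (SE 0.09) on the log2(FPKM + 1) scale. The values rested on an estimated 394 to 482 reads per WT sample and 861 to 963 reads per Apelin-KO sample. The coefficient of variation was 5.22% in WT and 1.64% in Apelin-KO samples, and the estimated counting error of these read numbers was 4.11%.

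**Figure D1:**
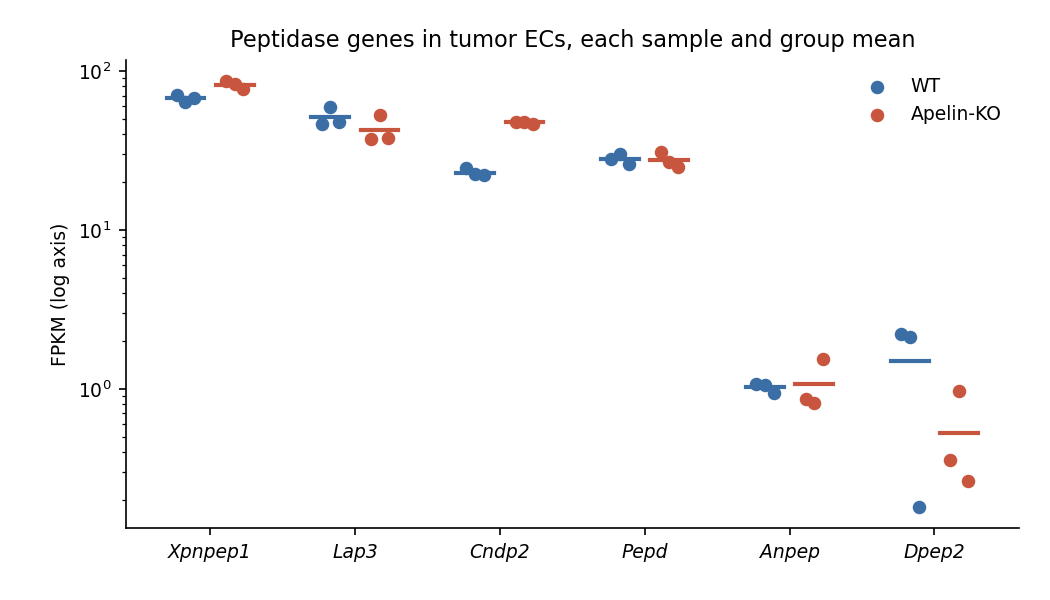
FPKM of the members (log axis) in each WT and Apelin-KO sample as points, with the group mean as a line. Cndp2 at 22.2 to 24.4 FPKM in WT and 46.6 to 48.1 FPKM in Apelin-KO samples shows the widest gap, Xpnpep1 a small one, and the groups of Pepd, Lap3, Anpep and Dpep2 overlap. Cndp1, at 0 in every sample, is not drawn.

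Genes were tested in one model over all 6 samples with limma, with 10964 genes at a mean of at least 1 FPKM entering. Of the 7 members, 6 entered and Cndp1 did not, and Anpep and Dpep2 lay just inside that limit at group means of 0.53 to 1.5 FPKM. At an adjusted p-value under 0.05 (Benjamini-Hochberg over all genes tested) 0.00912% of the genes were called, which was Apln alone (adjusted p = 0.00747 in limma), and 0 of the 6 members. At an unadjusted p-value under 0.05, 9.42% of the genes and 2 of the 6 members passed. WT and Apelin-KO samples did not overlap for 14.4% of the genes and for the same number of members, Cndp2 and Xpnpep1. The median log2 difference was -0.01 over the 6 members and 0.01 over all genes tested. As these values chose the members, the counts describe the choice.

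The size of the difference and the spread of the replicates are given for Cndp2 as a description, since it was selected for how consistently these same samples differed. In absolute size, 159 of the genes tested had a larger log2 difference, of which 27 were higher in Apelin-KO samples. The SD within groups was 0.053 on the log2 scale, while the median SD was 0.134 over 1780 genes within 1.5-fold of its mean level, and 3.37% of these had a smaller SD. Among these genes of like level, 12 had a log2 difference at least as large in absolute size, and 0 had both such a difference and an SD as small. Ordered by the log2 difference over its standard error, Apln came first (-16.6) and Cndp2 second (11.0). The next was Rgs5, a pericyte gene, at 3.44 ± 0.246 FPKM in WT and 7.78 ± 0.923 FPKM in Apelin-KO samples (log2 difference 0.98, SE 0.11). It was followed by BC021614, at 0.809 ± 0.404 and 3.81 ± 0.7 FPKM (log2 difference 1.42, SE 0.19).

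**Figure D2:**
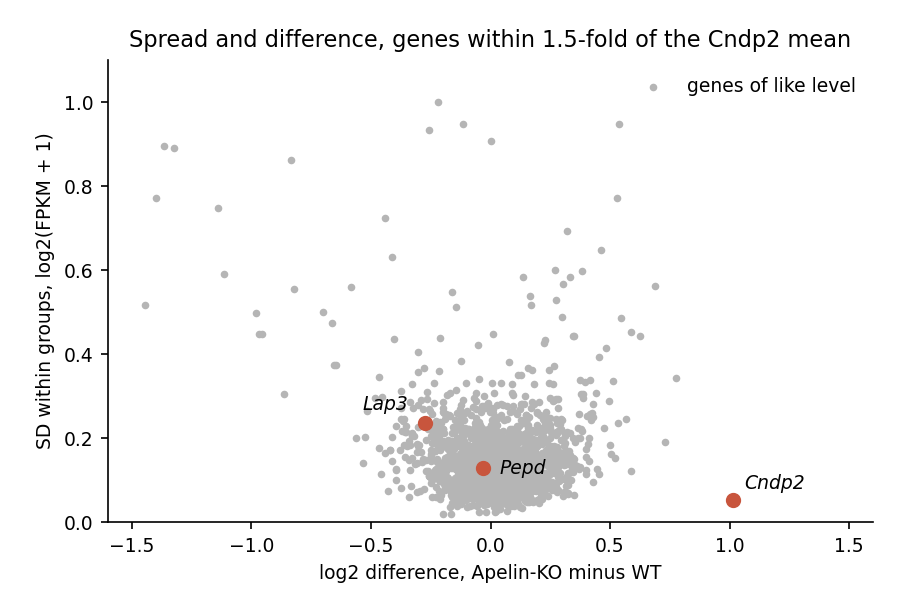
SD within groups on the log2(FPKM + 1) scale against the log2 difference, Apelin-KO minus WT, for 1780 genes within 1.5-fold of the mean level of Cndp2. Each point is a gene, and 11 genes outside the axes are not drawn. Cndp2, marked, lies at a difference of 1.02 and an SD of 0.053, to the right of and below nearly all others.

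The order of the members by FPKM differed between the groups in the place of Cndp2 among the 4 highest, while Dpep2 and Anpep changed places within both groups. In WT samples Xpnpep1 was highest, followed by Lap3, Pepd and Cndp2, and the ranges of these 4 genes did not overlap. In Apelin-KO samples Cndp2 lay above Pepd, and its range overlapped that of Lap3. Cndp2 thus ranked 4 among the members in each WT sample, and 2, 3 and 2 in Apelin-KO 1, 2 and 3. Its share of the summed FPKM of the members was 14.1%, 12.5% and 13.4% in the WT samples and 23.5%, 22.6% and 24.8% in the Apelin-KO samples. The ratio within a sample does not depend on how the samples were scaled to each other. Cndp2 over Xpnpep1 was 0.347, 0.351 and 0.326 in WT and 0.554, 0.576 and 0.606 in Apelin-KO samples. Over Pepd it was 0.744 to 0.871 in WT and 1.55 to 1.87 in Apelin-KO samples, and over Lap3 0.377 to 0.524 and 0.913 to 1.28. None of these 3 ratios overlapped between genotypes. As Cndp2 was selected for its difference in these same samples, the ratios describe that choice and are no separate evidence.

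**Figure D3:**
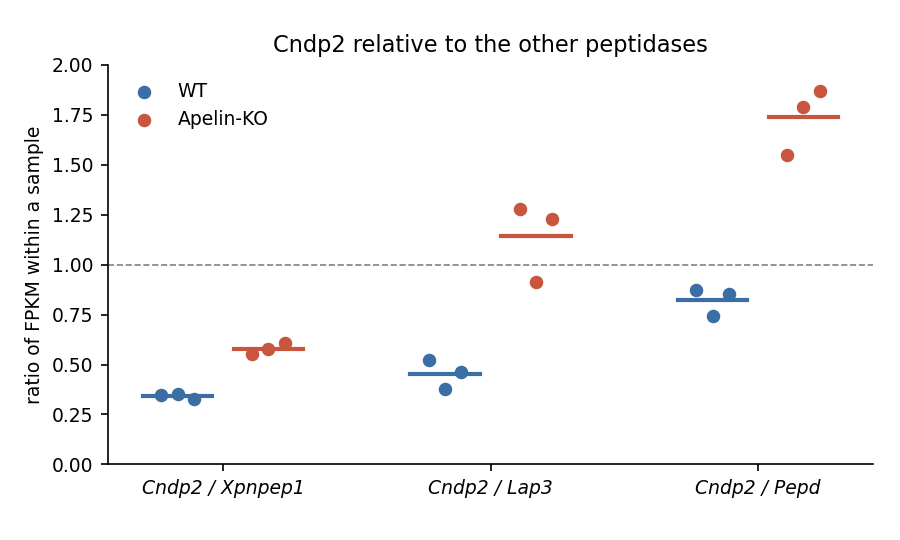
Ratio of the FPKM of Cndp2 to that of Xpnpep1, Lap3 and Pepd within each sample (points, linear axis from 0), with a dashed line where both genes are equal. In each ratio the Apelin-KO samples lie above the WT samples, and Cndp2 over Pepd crosses from 0.744 to 0.871 in WT to 1.55 to 1.87 in Apelin-KO samples.

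Markers of ECs and of other cells are given beside Cndp2, and 0 passed an adjusted p-value of 0.05 in limma. Under 0.05 unadjusted were 5 of 15 endothelial, 5 of 13 hematopoietic, 1 of 7 pericyte and 4 of 7 fibroblast genes tested, beside 9.42% of all genes. Ptprc, one of the hematopoietic genes, passed the limit of 1 FPKM through the WT samples, with means of 3.08 FPKM in WT and 0.826 FPKM in Apelin-KO samples. All 15 endothelial markers had a higher mean in Apelin-KO samples (median log2 difference 0.24), and their summed FPKM was 1.17 times that of WT samples. With all samples scaled to these markers, an alternative chosen after the data were seen, the median of all genes was -0.21, and the log2 difference was 0.78 for Cndp2 and 0.04 for Xpnpep1. Relative to the median of all genes the difference of Cndp2 was 1.01 as reported and 0.99 with this scaling. Hematopoietic markers summed to 492, 891 and 230 FPKM in WT 1, 2 and 3 and to 97.1, 287 and 264 FPKM in Apelin-KO 1, 2 and 3, and 12 of the 13 tested were lower on average in Apelin-KO samples, each with overlapping groups. Within WT samples this sum spanned a 3.87-fold range. Cndp2 spanned a 1.1-fold range there, but it was selected for its consistency in these same samples. Pericyte markers summed to 574 to 744 FPKM in WT and 647 to 756 FPKM in Apelin-KO samples. Most of this sum was Mcam, which ECs also express, at 513 ± 67.0 and 510 ± 68.2 FPKM, and 5 of the 7 tested pericyte markers were higher in Apelin-KO samples (median log2 difference 0.26). Fibroblast markers summed to 198 to 344 and 131 to 205 FPKM, and 7 of the 7 tested were lower on average in Apelin-KO samples, with groups apart for Dcn alone. Of those too low to be tested, Fap was higher in every Apelin-KO sample, at 0.0847 ± 0.0454 FPKM in WT and 0.411 ± 0.067 FPKM in Apelin-KO samples. The groups of Lum and Dpt, also untested, overlapped. The part of other cells in the level of Cndp2 was not tested.

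**Figure D4:**
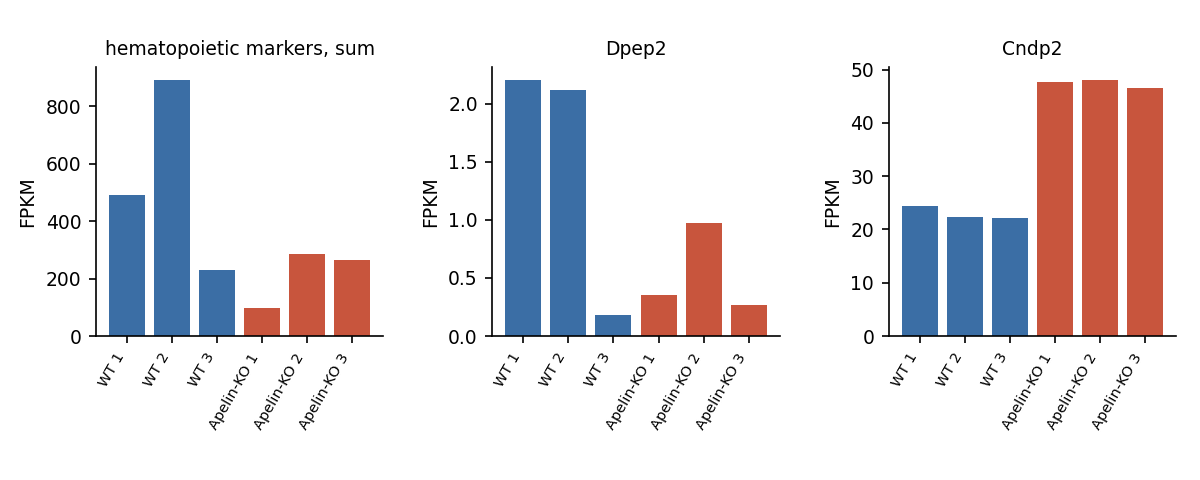
Summed FPKM of the hematopoietic marker list and FPKM of Dpep2 and Cndp2, with 1 bar per sample (WT in blue, Apelin-KO in red, linear axes from 0). Over the WT samples the hematopoietic sum runs from 230 to 891 FPKM and Dpep2 from 0.181 to 2.21 FPKM. Cndp2, selected for its consistency in these samples, runs from 22.2 to 24.4 FPKM.

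Cndp2 (ENSMUSG00000024644.17) lies at chr18:84667465-84685702 on the minus strand of GRCm38, and its longest coding transcript has 11 exons and 2152 bases. Of the 3 coding genes on each side, 3 had values above 0, and none of these 3 had groups that lay apart. The start site of Cndp1, on the same strand, lies at -35.6 kb from that of Cndp2, and those of Zfp407 and Zadh2 at -96.0 and -598 kb. Zfp407, a zinc finger gene, was at 2.08 ± 0.374 FPKM in WT and 1.78 ± 0.136 FPKM in Apelin-KO samples, and the groups overlapped. Zadh2, for a zinc-binding dehydrogenase of the prostaglandin pathway, was at 8.17 ± 1.44 and 9.56 ± 0.162 FPKM, and these groups overlapped as well. On the other side, Fam69c at 33.5 kb was at 0 in all 6 samples. Cyb5a at 153 kb, which encodes cytochrome b5, was at 298 ± 34.1 and 340 ± 21.9 FPKM with a log2 difference of 0.19 (SE 0.12) and overlapping groups. C18orf63, between them, was not analysed here.

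The genes whose values followed those of Cndp2 most closely over the 6 samples were Fam222b, Tgfa, Capn10, Zbed3 and Gata2, with Pearson correlations of 0.984, 0.982, 0.979, 0.979 and 0.977. With 6 samples of which 3 share a genotype and 10964 genes searched, such values mainly single out genes with tight and separate groups. Their differences were smaller than that of Cndp2. Gata2, an endothelial and hematopoietic transcription factor, was at 13.3 ± 0.326 FPKM in WT and 16.4 ± 0.609 FPKM in Apelin-KO samples (log2 difference 0.29). Tgfa, a ligand of the EGF receptor, was at 2.28 ± 0.141 and 3.08 ± 0.0658 FPKM. Capn10, a calpain, was at 3.41 ± 0.31 and 5.36 ± 0.306 FPKM, with the largest log2 difference of the 5 genes, 0.53. Of the members, Xpnpep1 was nearest to Cndp2 (r = 0.932) and Lap3 farthest (r = -0.582).

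Among the other dipeptidases, Cndp1 was at 0 in all 6 samples. Dpep2, whose enzyme converts leukotriene D4 and splits dipeptides at the cell surface, was at 2.21, 2.12 and 0.181 FPKM in the WT samples 1, 2 and 3, while the Apelin-KO samples 1, 2 and 3 had 0.355, 0.971 and 0.263 FPKM. WT 1 and WT 2 were thus the highest and WT 3 was the lowest of all 6, so that the groups overlapped. The estimated reads were 37.6, 32.0 and 2.77 in the WT samples and 5.57, 16.7 and 4.18 in the Apelin-KO samples, a counting error of 35.0%. The log2 difference was -0.6 (SE 0.40), and it was -1.08 without WT 3, -0.36 without WT 1 and -0.38 without WT 2. With a pseudocount of 0.1 or 0.01 in place of 1 it was -1.01 or -1.07. Of the hematopoietic marker sums, that of WT 3 was the lowest of the WT samples and that of Apelin-KO 2 the highest of the Apelin-KO samples. WT 2 had the highest sum of all and Apelin-KO 1 the lowest. The order of Dpep2 between WT 1 and WT 2, and among WT 3, Apelin-KO 1 and Apelin-KO 3, lay within the counting error of these read numbers. The part of hematopoietic cells in the level of Dpep2 was not tested. The annotation holds a second, overlapping gene of this symbol at chr8:105984945-105996423 beside that at chr8:105984944-105991759, both on the minus strand, and how reads were divided between them is not given in the sources used here.

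Of the aminopeptidases, Lap3 (chr5:45493374-45512691, plus strand) was at 46.5, 59.4 and 47.9 FPKM in WT and at 37.3, 52.6 and 37.9 FPKM in Apelin-KO samples. In both groups sample 2 was the highest and the groups overlapped. The log2 difference was -0.27 (SE 0.17), and it lay between -0.43 (without Apelin-KO 2) and -0.16 (without WT 2) when samples were left out. The SD within groups was 0.236 on the log2 scale, above that of 88.4% of the genes of like level, although an estimated 720 to 1120 reads stood behind each value. Anpep (chr7:79821803-79861059, minus strand) was low, at 1.07, 1.06 and 0.944 FPKM in WT and 0.858, 0.813 and 1.54 FPKM in Apelin-KO samples. Apelin-KO 3 was the highest and the other Apelin-KO samples the lowest, and the log2 difference was 0.01 (SE 0.15), or -0.14 without Apelin-KO 3. The level of Anpep stood at the percentile 33.3 of the 16341 genes above 0, next to that of Dpep2 at 33.1, while Xpnpep1 stood at 92.8, Lap3 at 88.1, Cndp2 at 84.5 and Pepd at 81.2.

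Xpnpep1 and Pepd both encode enzymes for bonds with proline, and 1 promoter of each is shown since the groups lay apart for one gene and overlapped for the other. The windows span 250 bases before the start site to 50 after it (RefSeq, GRCm38.p6), at chr19:53038605-53038904 on the minus strand and chr7:34912157-34912456 on the plus strand, written 5′ to 3′. A second RefSeq window for Xpnpep1, at chr19:53038521-53038820, overlaps the one shown and holds 24 CpG. Capitals mark, on either strand, the GC box GGGCGG, the CCAAT box CCAAT and the antioxidant response core TGACNNNGC.
Xpnpep1: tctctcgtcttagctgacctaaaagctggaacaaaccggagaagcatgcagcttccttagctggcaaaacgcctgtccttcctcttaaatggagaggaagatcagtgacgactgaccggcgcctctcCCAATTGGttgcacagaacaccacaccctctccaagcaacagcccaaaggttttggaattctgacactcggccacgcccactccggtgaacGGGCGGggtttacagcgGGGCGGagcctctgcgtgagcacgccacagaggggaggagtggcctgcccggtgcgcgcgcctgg
Pepd: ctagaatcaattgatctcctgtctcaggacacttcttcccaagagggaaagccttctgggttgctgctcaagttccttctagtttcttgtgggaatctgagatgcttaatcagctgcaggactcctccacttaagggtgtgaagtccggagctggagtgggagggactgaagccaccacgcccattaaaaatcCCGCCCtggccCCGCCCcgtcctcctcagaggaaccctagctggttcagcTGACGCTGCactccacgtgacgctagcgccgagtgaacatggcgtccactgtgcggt
GGGCGG occurred 2 times in each window. CCAAT was found 2 times in Xpnpep1, once on each strand in an overlapping pair, and 0 times in Pepd, and TGACNNNGC 0 times in Xpnpep1 and 1 time in Pepd. Of 32851 promoter windows of this length, 35.7% held GGGCGG, 37.4% CCAAT and 12.4% TGACNNNGC, so that each motif is common. The interferon response core (GAAA, any 2 bases, GAAA), held by 3.44% of all windows, was in neither of these nor in the windows of Lap3 and Anpep. The latter are richer in CpG, with 33 and 28 against 19 in the window shown for Xpnpep1 and 12 in Pepd and a median of 7 over all windows, and each held GGGCGG 4 times. The matches describe these letters and are not evidence of binding.

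Xpnpep1, for the aminopeptidase that also inactivates bradykinin, was at 70.3, 63.9 and 68.0 FPKM in WT and at 86.2, 83.5 and 76.9 FPKM in Apelin-KO samples. It had the highest level of the members in all 6 samples. The groups did not overlap, by a narrow margin, as the lowest Apelin-KO value was 1.09 times the highest WT value. The means were 67.4 ± 3.24 and 82.2 ± 4.8 FPKM, a 1.22-fold difference, with a log2 difference of 0.28 (SE 0.10) that was 0.04 in the scaling to endothelial markers. Pepd (chr7:34912379-35044708) was at 28.0, 30.1 and 26.0 FPKM in WT and at 30.8, 26.8 and 24.9 FPKM in Apelin-KO samples. Both groups covered nearly the same range, with means of 28.0 ± 2.05 and 27.5 ± 3.01 FPKM and a log2 difference of -0.03 (SE 0.12). The levels of both genes were thus within 1.22-fold between the genotypes.

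Genes of the surrounding pathways stayed close to the background. In 8 lists of related dipeptidases, aminopeptidases, dipeptidyl and tripeptidyl peptidases, oligopeptidases, the glutathione cycle, peptide transporters, carnosine handling and proline metabolism, 56 of 76 genes were tested. At an adjusted p-value under 0.05 in limma 0 passed, and the lowest adjusted p was 0.501. At an unadjusted p-value under 0.05, 7 passed (12.5%, against 9.42% of all genes), of which 1 was higher and 6 were lower in Apelin-KO samples. The count was 2 without WT 2 and also 2 without Apelin-KO 2, and it was 3 with the variance of each gene alone. The groups lay apart for 9 genes (16.1%, against 14.4%), the median log2 difference was -0.03, and 82.1% of the genes lay within 0.3 of 0, beside 83.6% of all genes.

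**Figure D5:**
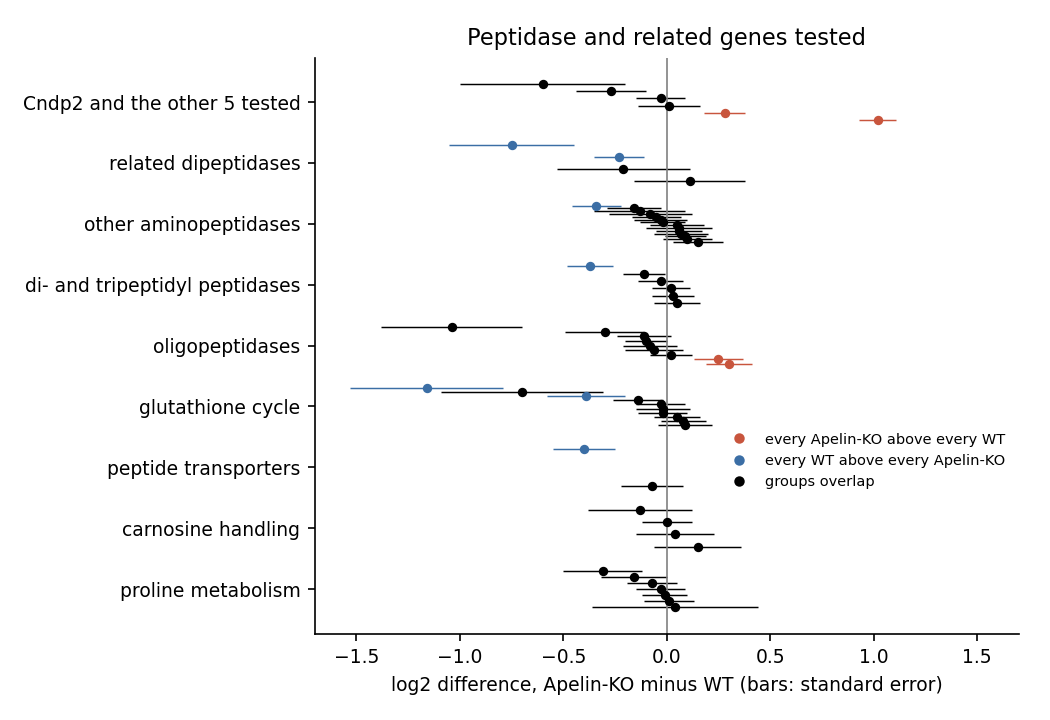
Log2 difference, Apelin-KO minus WT, with its standard error for the tested genes of each list (1 point per gene), colored by whether the groups overlap. Most points lie within 0.3 of 0, and Cndp2 at 1.02 is the farthest to the right.

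Among enzymes close to Cndp2 in function, Cpq, a secreted dipeptidase, was at 56.8 to 71.2 FPKM in WT and 51.7 to 53.7 FPKM in Apelin-KO samples (log2 difference -0.23, SE 0.12, and -0.13 without WT 3). Aspa, which removes the acetyl group from N-acetylaspartate, was at 3.17, 1.33 and 0.816 FPKM in WT and at 0.319, 0.583 and 0.791 FPKM in Apelin-KO samples. Its mean passed the limit of 1 FPKM through the WT samples alone, which favors a difference in that direction. It was one of the 7 genes at an unadjusted p-value under 0.05 (adjusted p = 0.521 in limma), though WT 3 and Apelin-KO 3 nearly met. Its log2 difference was -0.75, -0.41 without WT 1, and -1.36 with a pseudocount of 0.1. Dpp7, which removes dipeptides from the ends of peptides in vesicles, was at 9.06 to 10.4 FPKM in WT and 6.89 to 8.21 FPKM in Apelin-KO samples (log2 difference -0.37, SE 0.11, adjusted p = 0.501 in limma). The mitochondrial relative of Xpnpep1, Xpnpep3, was at 3.37 to 3.83 and 2.11 to 3.02 FPKM (adjusted p = 0.512 in limma), so that the sign of its difference, -0.34, was opposite to that of Xpnpep1. Xpnpep2, the membrane-bound form, was at 0.178 ± 0.102 and 0.342 ± 0.0173 FPKM, higher in every Apelin-KO than in every WT sample but too low to be tested. This gene, Slc7a11, Mme and Carns1 were chosen after their values were seen.

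In the glutathione cycle, which feeds cysteinylglycine to CNDP2, Ggct and Chac1 were the tested genes whose groups lay apart. The groups of Slc7a11, for the cystine carrier, also lay apart, at 0.534 ± 0.255 FPKM in WT and 0.16 ± 0.0652 FPKM in Apelin-KO samples, but it was too low to be tested. Ggct, which releases 5-oxoproline from gamma-glutamyl peptides, was at 21.1, 7.56 and 9.49 FPKM in WT and at 3.49, 6.54 and 4.28 FPKM in Apelin-KO samples. Its log2 difference was -1.16 (SE 0.37, adjusted p = 0.501 in limma), and -0.75 without WT 1. Chac1, which splits glutathione in the cytosol and so yields cysteinylglycine, was at 4.74 to 5.09 FPKM in WT and 2.42 to 4.71 FPKM in Apelin-KO samples (log2 difference -0.39, SE 0.19, and -0.19 without Apelin-KO 1). The lysosomal peptide transporter gene Slc15a3 was at 1.73 to 2.17 and 0.951 to 1.64 FPKM (log2 difference -0.40, and -0.65 with a pseudocount of 0.1, adjusted p = 0.513 in limma), and Slc15a1, for the intestinal dipeptide carrier, was at 0 in all 6 samples. Carns1, for carnosine synthase, was at 1.28 ± 0.589 and 1.29 ± 0.147 FPKM.

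Ece1 and Prcp, both in the oligopeptidase list, were the tested list genes whose Apelin-KO samples all lay above the WT samples. Ece1, for endothelin-converting enzyme, was at 208, 175 and 209 FPKM in WT and at 228, 252 and 249 FPKM in Apelin-KO samples (log2 difference 0.30, SE 0.11, adjusted p = 0.513 in limma), and the difference was 0.06 with scaling to endothelial markers. Prcp, for a lysosomal carboxypeptidase that inactivates angiotensin, was at 46.5 to 47.4 FPKM in WT and 51.3 to 65.6 FPKM in Apelin-KO samples (log2 difference 0.25, SE 0.12), which was 0.01 with that scaling and 0.14 without Apelin-KO 1. Mme, for neprilysin, was at 26.9, 26.1 and 14.1 FPKM in WT and at 6.62, 9.18 and 15.7 FPKM in Apelin-KO samples, so that its log2 difference of -1.04 (SE 0.34, adjusted p = 0.501 in limma) came with overlapping groups.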

How the data were processed

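RNA of CD31+ CD45- tumor cells in 3 samples from WT and 3 from Apelin-KO mice was sequenced from stranded mRNA libraries (75 bases, single end). The deposited values are FPKM that the authors made with Cufflinks after mapping to mm10. The submitters' processing notes name TopHat2 2.1.1, Bowtie2 2.2.4, SAMtools 1.0 and Cufflinks 2.2.1, and the study's methods give other versions of the first 3. The annotation, strand setting and filters are not given in the sources used here.

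Groups were taken from the sample titles. Genes averaging 1 FPKM or more were tested with limma 3.58.1 (R 4.3.3) on log2(FPKM + 1), two-sided, over all 6 samples without covariates, with Benjamini-Hochberg adjustment. A pseudocount of 1 understates the difference of low genes. Standard errors are from this fit. The fit was tested on simulated data of 10964 genes and recovered 97.2% of 4-fold changes, which were placed in a small part of the genes. These genes lay well above the limit of 1 FPKM. Smaller changes and changes in genes near that limit were not simulated, so that the share does not cover them. The step of 1 read in low FPKM of 3742 genes with a single transcript over 700 bases, at assumed 200-base fragments, gave the depth, and 65.3% to 67.6% of low values came to a whole read within 0.1 (20% if spread evenly). As this share is far from complete, no count test was run, and read numbers and counting errors are estimates that cover counting alone.

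Members and lists were chosen with earlier results of these data known. Named beyond the members were, per list and direction, the 3 tested genes with the largest difference among those with groups apart, the 3 coding genes on each side of Cndp2, the 5 genes most like it, its neighbours in the order by difference over standard error, and defining markers. Positions are from GENCODE (GRCm38), and 4 members matched a RefSeq promoter. Alternatives changed the pseudocount, filter, scaling, variance, sample weights, block and samples. Figures were made with Python 3.11.15 and matplotlib 3.10.9.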

Additional observations from a re-analysis of the deposited data

How the results depend on the processing

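The log2 difference of Cndp2 lay between 0.99 and 1.06 when each sample was left out in turn, and moved to 0.78 with scaling to endothelial markers, which lowers the median of all genes to -0.21 by construction. Under that scaling Pepd went from -0.03 to -0.27, Lap3 from -0.27 to -0.51, Ece1 from 0.30 to 0.06 and Prcp from 0.25 to 0.01. Cpq went from -0.23 to -0.47, Dpp7 from -0.37 to -0.59, Xpnpep3 from -0.34 to -0.53 and Chac1 from -0.39 to -0.59. These genes all moved by about the shift of the median, and Anpep, from 0.01 to -0.11, moved by less. The number of genes at an adjusted p-value under 0.05 was 1 as reported. It was 2 with a pseudocount of 0.01, with no filter, with genes averaging 5 FPKM or more and with an intensity trend, 0 with each gene's own variance, and 0 to 3 with samples left out (0 without WT 2 and without Apelin-KO 2, 3 without WT 1). At an unadjusted p-value under 0.05 the 1033 genes became 1963 with endothelial scaling, and 538 to 1233 with samples left out (538 without WT 2, 665 without WT 1). The genes higher in Apelin-KO samples were 45.1% of these as reported and 2.85% with endothelial scaling. Of the list genes, 7 passed as reported, 4 with genes averaging 5 FPKM or more, 3 with each gene's own variance, 12 with endothelial scaling and 2 to 8 with samples left out. Whether samples with the same replicate number share more than that number is not given in the sources used here. The correlations of their deviations were -0.139, 0.207 and -0.0186, which cannot decide it with 3 samples per group. With the replicate number as a block, Cndp2 stood at 1.02 (SE 0.11), 893 genes passed unadjusted, and 3 list genes did. Of the members above 0, Dpep2 had the fewest reads, with an estimated counting error of 35.0% on average and more in the samples of under 6 reads.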
